A study of Canis lupus familiaris with 59 samples.

Results

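Tumours 27 to 36 are 10 of the 59 libraries of this series, all from dogs: 49 are labelled cortisol-secreting adrenocortical tumour and 10 are normal adrenal cortices labelled healthy. They were chosen by measured values: among runs of 10 neighbouring title numbers, this run gave the second peak in the count of genes that differed from the other libraries. The numbers are those in the library titles, and the labels give no date, batch, animal, sex, age, treatment or tumour subtype. Neighbouring numbers may share a batch, which cannot be told apart here from any other difference between the groups. The 10 tumours were set against 29 comparators, tumours 1 to 26 and 47 to 49, which carry the same label. Tumours 37 to 46 and the normal cortices were left out of the fit and are given as reference levels. Tumours 37 to 46 are themselves a run of 10 numbers singled out for a contrast with the same comparators. They are therefore no neutral sample of the other tumours. Because the run was picked on the same contrast, its gene counts and fold changes are a description and no test of a difference.

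The cortex forms the rind of the adrenal gland and turns cholesterol into steroid hormones. Cortisol is made mainly in its middle zone, under control of the pituitary hormone ACTH, and a cortical tumour can release cortisol without that control. In dogs such tumours are one cause of Cushing's syndrome, the illness of cortisol excess. Each library sums the RNA of all cells in a piece of tissue, so fewer cells of a type and less RNA per cell cannot be told apart. Genes carry only Ensembl identifiers here, 0 of 28570 of which could be paired with a symbol, so the role of a gene cannot be given and the labelled tissue was not checked against its marker genes.

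Tumours 27 to 36 held 1205684 to 2956267 estimated transcript molecules per library, against 1007920 to 5449077 in the comparators. The log2 total was 20.89 ± 0.51 (SD, n = 10) and 20.96 ± 0.60 (SD, n = 29), which makes the run's mean differ by -0.074 (two-sided permutation test, p = 0.73). After every library was thinned to 1007920 molecules, 18108 ± 444 (SD) genes were detected in the 10 tumours and 17677 ± 654 (SD) in the comparators. The factor that scales a library for its composition (TMM) was 1.05 ± 0.06 (SD) and 0.986 ± 0.082 (SD). Genes detected and the TMM factor were both higher on average in the run, with overlapping ranges, and neither difference was tested. The part of these library measures in the results below was not tested, except that depth and scaling were varied as given under each count.

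Over the whole transcriptome the 10 tumours were, by mean r, hardly more like each other than like the comparators. Pearson's r of log2 CPM, the counts scaled to a common library total, over 12268 genes averaged 0.879 among them, 0.890 among the comparators and 0.878 between the groups. Tumour 31 correlated least with the other 9, at a mean of 0.852, and tumour 30 most, at 0.900. For 5 of the 10 the most similar of the other 38 libraries in the comparison was another of the 10, and for 5 it was a comparator. Those 38 held 9 tumours of the run and 29 comparators, so an even split is more than the run's share of them. Of the 45 pairs within the run, tumours 30 and 35 had the highest r (0.940), followed by 28 and 35 (0.935) and 30 and 34 (0.934), and tumours 29 and 33 the lowest (0.828). Tumour 27 was most like tumour 13 (r = 0.944), and tumours 28 and 36 were both most like tumour 26. These values are a description over libraries of one tissue label and unequal depth, and the run was picked on the same genes.

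Of 12268 genes fitted with edgeR, 78 were called higher in tumours 27 to 36 (0.636%) and 63 lower (0.514%), in all 141 (1.15%) at a Benjamini-Hochberg adjusted p under 0.05. Since this contrast chose the run, nothing is read from the counts themselves. Among higher genes the median log2 fold change was 0.99, with values of 0.42 to 3.14, and 39 differed by at least 2-fold. Among lower genes the median was -0.80, from -3.24 to -0.42, and 21 of them were at least 2-fold lower. Over all genes tested the median was 0.02, and 2.32% differed by at least 2-fold in either direction. The calls lay close to the threshold: the median adjusted p of the called genes in edgeR's quasi-likelihood test was 0.0352, the lowest was 0.00578, and 3 genes were under 0.01. The largest log2 fold change of any gene, -4.47, was not called.

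The higher and lower genes differed in level and in how they varied. The average log2 CPM of the higher genes had a median of 4.39, next to 4.37 for all genes tested, and 39 of 78 were at or above that middle level. The lower genes had a median of 5.39, and 44 of 63 were at or above it. The higher genes were uneven within the run, with a median SD of 0.78 log2 CPM among the 10 tumours and 0.58 among comparators. For 70 of the 78 (89.7%) the SD was larger among the 10, against 47.0% of all genes tested. The lower genes were more even within the run, with a median SD of 0.44 among the 10 and 0.53 among comparators, and 16 of 63 (25.4%) had the larger SD among the 10. A gene called from a few very high libraries has a large SD by construction, so these values describe the called genes and were not tested.

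**Figure D1:**
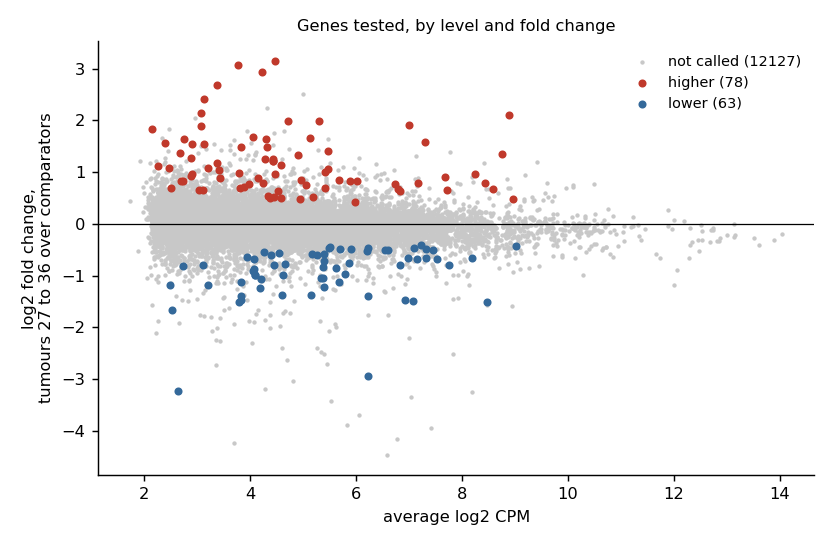
Each point is 1 of the 12268 genes tested, with average log2 CPM on the horizontal axis and the log2 fold change of tumours 27 to 36 over the 29 comparators on the vertical axis. The 78 higher genes (red) spread from 0.42 to 3.14 and the 63 lower genes (blue) from -3.24 to -0.42, among many uncalled genes of like fold change (grey).

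No gene parted the groups. The highest number of the 10 tumours above all 29 comparators was 6 for a higher gene, with a median of 3 over the 78. For the lower genes the highest number below all comparators was 4, with a median of 1 over the 63. Over all 12268 genes the highest number was 7 in either direction, so some uncalled genes parted the groups further than any called gene. All 10 tumours lay above the comparators' median for 20 higher genes (25.6%, against 2.27% of all genes tested). All 10 lay below it for 41 lower genes (65.1%, against 1.10% of all genes tested). At least 9 of 10 were above it for 53 of 78 higher genes (67.9%, against 9.33% of all genes tested) and below it for 62 of 63 lower genes (98.4%, against 3.83%). The called genes were chosen on these same values, so nothing is read from these shares.

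The tumours of the run contributed unequally. As a summary per library, the log2 CPM of each called gene was expressed as a difference from the comparators' mean and averaged over the genes. For the higher genes this mean difference was 1.53 in tumour 35, 1.18 in tumour 31 and 1.11 in tumour 32. It was between 0.79 and 0.95 in tumours 28, 29, 30, 33 and 36, then 0.53 in tumour 34 and 0.15 in tumour 27. For the lower genes the difference was largest in tumour 31 at -1.17, then -0.98 in tumour 35 and -0.93 in tumour 36, and smallest in tumour 27 at -0.43. Tumour 35 was the highest of the 10 for 17 of the 78 higher genes (21.8%), against 7.34% of all genes tested. Tumour 31 was the lowest for 21 of the 63 lower genes (33.3%), against 15.8% of all genes tested.

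At the edges of the run the step was uneven. Tumour 26, the last comparator before the run, had mean differences of 0.10 for the higher and -0.28 for the lower genes, and tumour 27, the first inside, had 0.15 and -0.43. Tumour 36, the last inside, had 0.91 and -0.93, and tumour 37, the first outside, had 0.04 and 0.20. By these values tumour 27 stood nearer to its neighbour outside the run than to most tumours in it. Tumours 36 and 37 lay far apart. The genes were called for a difference between the run and the comparators, so a step at its edges is partly built in. The edges are also unlike, since tumour 26 was in the fit and tumour 37 was not. Nothing is read from the steps.

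Several libraries outside the run had the same profile in part. For the higher genes, 6 of 29 comparators reached the level of tumour 27, led by tumour 2 at 0.87, tumour 14 at 0.55 and tumour 3 at 0.37, and 0 reached the median of the 10 tumours, 0.92. For the lower genes, tumours 18 (-0.76), 25 (-0.74) and 14 (-0.61) passed tumour 27, and 0 comparators reached the median of the 10, -0.85. The genes were called for a difference from these same comparators, so nothing is read from either 0. Tumour 47 was the lowest of all libraries for the higher genes, at -0.49, and was at 0.49 for the lower genes. Tumour 48 was the highest of all libraries for the lower genes, at 0.62, and at the comparators' median for the higher genes, at -0.07, and tumour 49 was at 0.15 and -0.04.

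**Figure D2:**
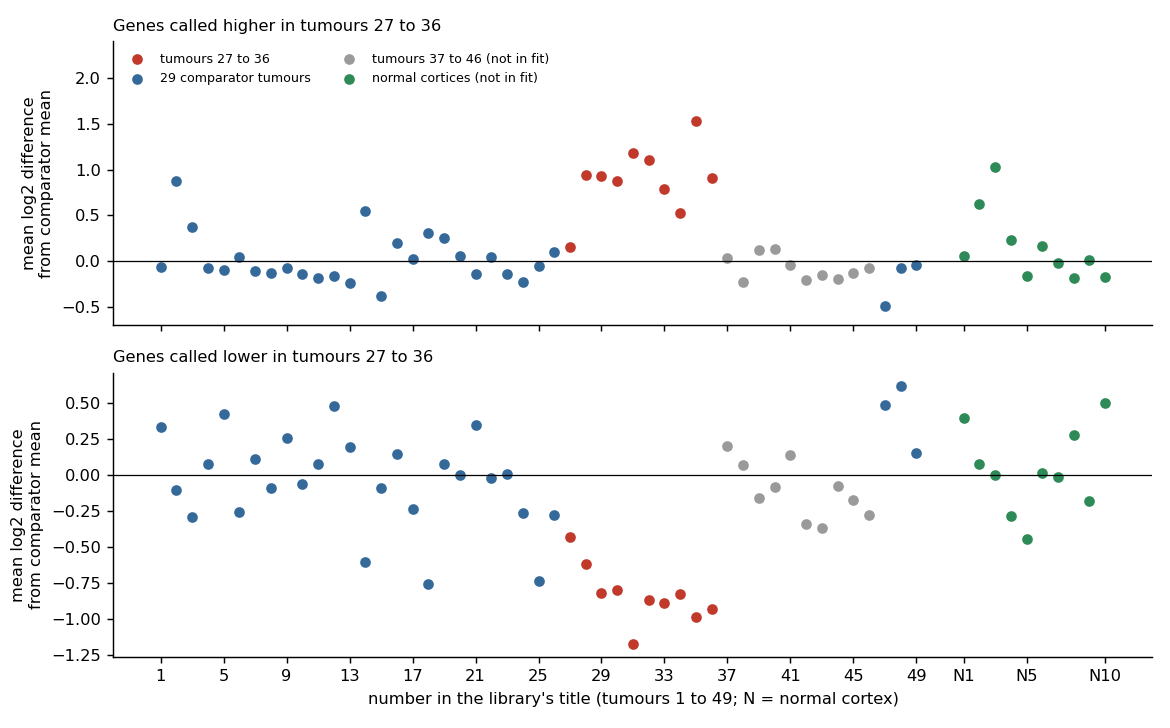
Mean log2 CPM difference from the comparators' mean over the 78 higher genes (upper panel) and the 63 lower genes (lower panel), 1 point per library, by the number in its title, with normal cortices at the right. Tumours 28 to 36 (red) are all at 0.53 or more above and -0.62 or less below, tumour 27 is at 0.15 and -0.43, and tumours 37 to 46 (grey) lie around 0.

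The reference libraries lay nearer to the comparators by their group medians for most called genes. Over tumours 37 to 46 the mean difference ran from -0.23 to 0.14 for the higher genes and from -0.37 to 0.20 for the lower genes, so 0 of these 10 reached tumour 27 in either set. These 10 were much alike, with a mean r of 0.944 among them over the genes tested. It was 0.879 among tumours 27 to 36, 0.890 among the comparators and 0.882 among normals. The median level of tumours 37 to 46 was nearer to that of tumours 27 to 36 for 13 of 78 higher genes (16.7%) and 12 of 63 lower genes (19.0%), on a log2(CPM + 1) scale, against 42.5% of all genes tested. In the normal cortices it was nearer for 2 higher genes (2.56%) and 8 lower genes (12.7%), against 30.2% of all genes tested. By the mean difference over the higher genes, however, 4 of 10 normals reached tumour 27, namely normal 3 at 1.02, normal 2 at 0.62, normal 4 at 0.23 and normal 6 at 0.16, and normal 3 also exceeded the median of the run. For the lower genes the normals ran from -0.445 in normal 5, which passed tumour 27 at -0.431, to 0.50 in normal 10. The called genes were selected for a distance between the 10 tumours and the comparators, which by itself places any other group more often on the comparators' side.

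The called genes also varied together within each group. Among the 29 comparators alone, the mean pairwise r across libraries was 0.13 between higher genes, 0.27 between lower genes and -0.11 between a higher and a lower gene, against 0.001 over all pairs of genes tested. A higher and a lower gene were opposed in 71.1% of pairs. Within the 10 tumours these means were 0.13, 0.17 and -0.12. Among tumours 37 to 46 they were 0.08, 0.19 and 0.03, and among normals 0.14, 0.12 and -0.03, so that the opposition of the sets was near 0 there. The pairs share libraries and genes, and the values are a description over 10 or 29 libraries. The comparators and the 10 tumours were also in the fit that called these genes. Genes that vary together tend to be called together, so nothing is read from these values.

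As a further description each tumour was left out of the fit, and the genes called without it, as far as they were among the 12268, were looked up in it. Tumours 28 to 36 had between 71.4% and 88.9% of those genes on the called side of the comparators' median, and tumour 27 had 50.5% of 277 genes. The value of 88.9% in tumour 35 rests on 9 genes. Comparators left out in the same way had a median of 58.8%, from 14.5% in tumour 47 to 88.9% in tumour 14. Tumour 3 had 83.3% and tumour 18 had 80.2%, and 2 of the 29 reached the median of the 10 tumours, 80.3%. The groups therefore overlapped at both ends. The run had been picked with each of these tumours in it, so this is no independent test.

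**Figure D3:**
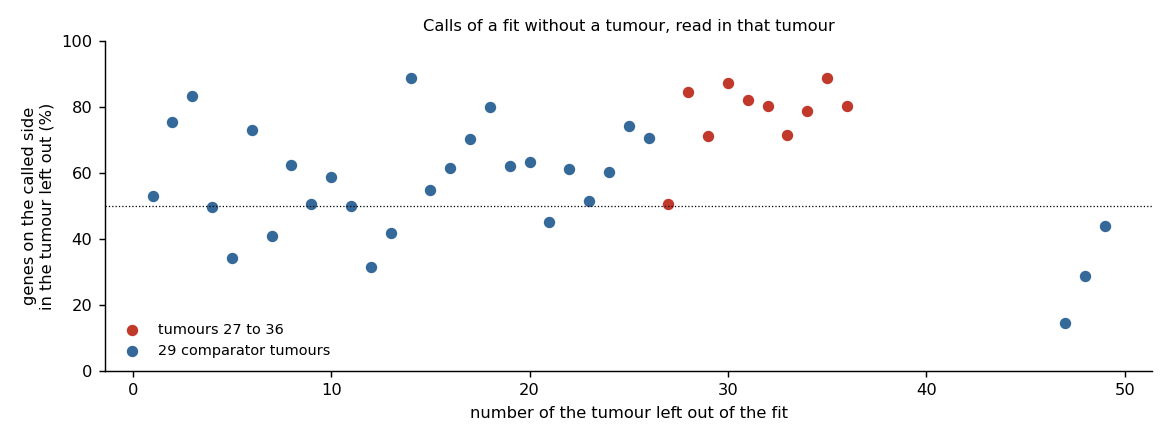
Share of genes, called in the fit without a tumour, that lay on the called side of the comparators' median in that tumour, as a percentage, by the number of the tumour left out. Of tumours 27 to 36 (red) 9 lie between 71.4% and 88.9% and tumour 27 lies at 50.5%, while the comparators (blue) run from 14.5% to 88.9%.

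The number of called genes depended on single tumours of the run. Without tumour 35 the count fell to 8 higher and 1 lower. It was 29 and 10 without tumour 31, 35 and 21 without tumour 30, 44 and 23 without tumour 33, and 49 and 25 without tumour 32. Without tumour 28 there were 40 lower genes and without tumour 34 there were 36. Leaving out tumour 27 had the opposite effect, with 153 higher and 128 lower genes. Of the 141 genes, 71 higher and 61 lower were called again in that fit. Leaving out tumour 29 or 36 moved neither count by more than 1.5 times.

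Single comparators moved the counts as well. They rose without some comparators, to 136 higher and 116 lower without tumour 14, 134 and 124 without tumour 18, and 138 and 119 without tumour 25. Without tumour 3 there were 129 higher genes, and without tumour 2 there were 104 higher and 75 lower. Tumour 25 shared the profile for the lower genes only, with a mean difference of -0.06 for the higher genes. Why the counts rose was not tested. Most fits without 1 comparator called fewer genes than the 141 of the full fit. The counts were 45 and 31 without tumour 47, 51 and 32 without tumour 48, and 41 and 34 without tumour 49. They were 45 and 34 without tumour 12, with 51 higher without tumour 7, and 41, 32 and 35 lower without tumours 1, 5 and 9.

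**Figure D4:**
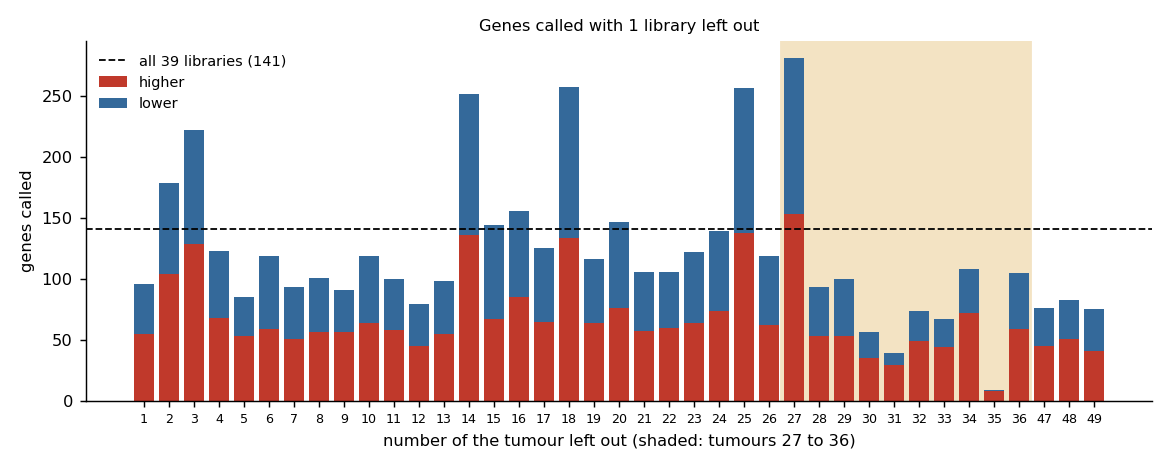
Genes called higher (red) and lower (blue), stacked, in fits that leave out 1 of the 39 libraries, named on the horizontal axis. The dashed line marks the 141 genes called with all 39, and the shaded bars range from 9 genes without tumour 35 to 281 without tumour 27.

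With tumours 1 to 26 as the only comparators, 3 genes were called higher and 0 lower in edgeR's test, although 1754 genes had an unadjusted p under 0.05, against 2092 with all 29 comparators. No other tool was run on those comparators. The fold changes hardly moved: the median log2 fold change was 0.96 for the 78 higher genes and -0.79 for the 63 lower genes, and all 141 kept their direction. The median adjusted p of the 141 went from 0.0352 to 0.081, in a range from 0.0141 with DESeq2 to 1 against a fold of 1.5 over all alternatives run. Thus leaving out tumours 47 to 49 ended nearly all calls while directions and median sizes stayed. No fit left out another set of several comparators, so whether this is particular to tumours 47 to 49 was not tested. With libraries scaled by totals alone, the median over all genes tested moved from 0.02 to 0.11 on the log2 scale, and there were 171 higher and 32 lower genes, 84.2% higher against 55.3% with TMM. DESeq2 gave 131 and 199 (39.7% higher) and limma-voom gave 287 and 246. With no filter on low counts 70.9% of 117 called genes were higher. When the fit included the log2 library total, 58 higher and 51 lower genes were called, within 1.5 times of the counts without it. With all libraries thinned to the same total, 44 higher and 28 lower genes were called, among 9490 genes left to test.

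The genes named next were taken, 2 in each direction, as the called genes of largest fold change with an average level no lower than the median gene tested. ENSCAFG00000010840 had the largest log2 fold change of the higher genes, 3.14 ± 0.67 (SE), and this rested on 1 library. Tumour 36 held 615 CPM, or 833 molecules. The other tumours of the run held between 0.338 CPM in tumour 27 and 13.0 CPM in tumours 28 and 33, with a median of 9.48 CPM over all 10. In the comparators the lowest was 0 CPM (tumour 23), the median 2.51 CPM and the highest 55.5 CPM (tumour 16). Without tumour 36 the log2 fold change was 0.07 and the gene was not called. DESeq2 gave 0.46 and limma-voom 1.33, also without a call. With the log2 library total in the model the log2 fold change was 2.44, and with tumours 1 to 26 as comparators it was 3.06, both without a call, and a fold of 1.5 as the null also ended the call. Apart from tumour 36 the groups overlapped, with 6 comparators above the median of the 10. Of the 10 tumours 9, tumour 36 among them, lay above the comparators' median. Tumours 37 to 46 had a higher median, 16.0 CPM, from 5.68 to 48.7 CPM, and the normals held 0 to 24.4 CPM with a median of 3.68 CPM.

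ENSCAFG00000030286 is an abundant transcript that was higher in the run by a log2 fold change of 2.11 ± 0.54 (SE). The run held 132 CPM in tumour 27, a median of 506 CPM and 7270 CPM in tumour 35. The comparators held 23.9 CPM in tumour 13, a median of 128 CPM and 1960 CPM in tumour 2. All 10 tumours of the run exceeded the comparators' median, and 4 comparators exceeded the median of the run. Tumour 35 set much of the size: without it the log2 fold change was 0.91 and the call was lost. With distinct molecular tags in place of the corrected counts the value was 1.21, again without a call. The number of tags is limited, so this setting compresses the highest counts most. Tumour 35 held 18760 estimated molecules of this transcript, a value that leans on the collision correction. The fall to 1.21 is thus no check separate from leaving tumour 35 out, and how much of it is compression was not tested. The call was also lost with no filter, against a fold of 1.5, with tumours 1 to 26 as comparators, without any 1 of tumours 28, 30, 31, 32 or 33, and in 20 of 29 fits without 1 comparator. Its log2 fold change in those 29 fits lay between 2.05 and 2.52. Tumours 37 to 46 held far less of it, from 0.626 to 90.7 CPM with a median of 12.2 CPM, all of them below the lowest tumour of the run. The normals held 96.6 to 11600 CPM with a median of 186 CPM, the highest value being that of normal 3.

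ENSCAFG00000017833 had the largest difference of the lower genes at or above the median level, a log2 fold change of -2.93 ± 0.73 (SE). It was low in the whole run: 0 CPM in tumour 30, 0.829 CPM in tumour 29, a median of 6.83 CPM, and 31.5 CPM in tumour 31. The count of 0 in tumour 30 allows a level of up to 1.09 CPM at that library's depth, for counting error only, and over the 39 libraries a count of 0 allows 0.551 to 2.98 CPM. The comparators held 0.921 CPM in tumour 18, a median of 75.6 CPM and 279 CPM in tumour 11. In 22 of 29 comparators the level was above the highest of the run, and 7 lay within its range, among them tumours 18, 25 and 49. The log2 fold change stayed between -3.74 and -2.80 over all alternatives. The call was lost without any 1 of tumours 29, 30, 31, 32, 33, 35 or 36, without tumour 12 of the comparators, in limma-voom, with no filter, against a fold of 1.5, and with tumours 1 to 26 as comparators. In tumours 37 to 46 the gene was lower still, at 0 to 2.70 CPM with a median of 0.223 CPM and a count of 0 in 5 of the 10. The normals resembled the comparators, at 6.09 to 527 CPM with a median of 79.8 CPM.

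ENSCAFG00000015657 was lower by a log2 fold change of -1.50 ± 0.37 (SE). The run held 63.9 CPM in tumour 33, a median of 130 CPM and 257 CPM in tumour 36. The comparators held 95.1 CPM in tumour 17, a median of 303 CPM and 2870 CPM in tumour 18. All 10 tumours were below the comparators' median, and 19 of 29 comparators were above the highest of the run. Unlike the higher genes named above, its difference did not hang on 1 tumour of the run. Without each of the 10 in turn the log2 fold change was between -1.61 and -1.41. Tumour 18 of the comparators set part of the size: without it the value was -1.228, with the call kept. It was -1.185 with limma-voom and -1.205 with distinct molecular tags, also called. The call was lost without any 1 of tumours 28, 30, 31, 32, 33 or 35, against a fold of 1.5, with the log2 library total in the model, and with tumours 1 to 26 as comparators. All of tumours 37 to 46 lay above the highest tumour of the run, at 258 to 1120 CPM with a median of 487 CPM. The normals ran from 85.8 to 904 CPM with a median of 297 CPM, close to that of the comparators, and 5 of 10 lay within the range of the run.

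**Figure D5:**
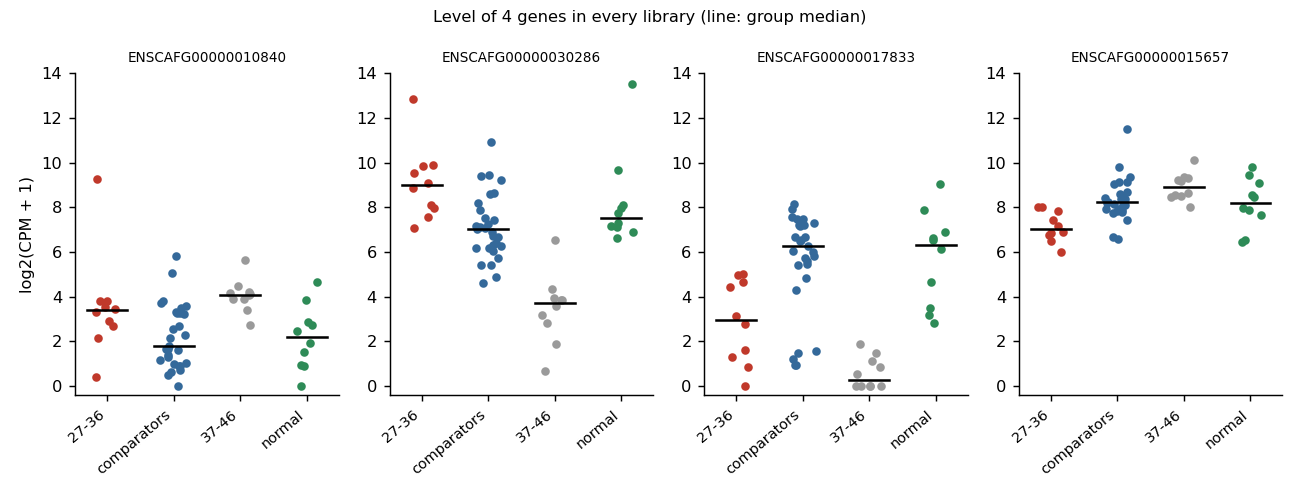
Level of 4 genes as log2(CPM + 1) in every library, with group medians as lines, for tumours 27 to 36, the 29 comparators, tumours 37 to 46 and normal cortices. For ENSCAFG00000010840 tumour 36 and for ENSCAFG00000030286 tumour 35 stand far above the rest of the run, while for ENSCAFG00000017833 and ENSCAFG00000015657 the 10 tumours are low together, with medians of 6.83 and 130 CPM.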

How the data were processed

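RNA of dog adrenal tissue was sequenced with CEL-Seq2, a 3′ method with molecular tags, per the labels' protocols, which speak of dissociated cells kept in lysis buffer. Per the submitters' processing notes, BWA and CanFam3.1 were used; for the counter and the annotation, no source here gives a name. The authors deposited estimated counts, whole numbers for 28570 identifiers in 59 libraries, all (100%) of the form left by a correction for collisions among 4096 tags, with a ceiling of 34070; this was read from the values. The design had assumed plain counts; the same tests were used. In the 39 libraries 20 genes reached the ceiling, 0 of them called.

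The members, lists and tests were chosen with earlier results of these data known. edgeR 4.0.16 (R 4.3.3; filterByExpr by group, TMM, robust quasi-likelihood, two-sided) compared 10 with 29 libraries over 12268 genes, which kept at least 95.8% of each library. An SE is the log2 fold change divided by the square root of F. CPM are per library total, and r and mean differences use TMM-scaled log2 CPM (prior count 2). DESeq2 1.42.0, limma 3.58.1 (voom, sample weights), other scalings, filters, thinning and left-out libraries were alternatives; the permutation test used SciPy 1.17.1 and 100000 resamples. Genes were named by fold change among called genes at or above the median level, 2 in each direction, since the planned gene lists and markers need symbols. The labels do not say that libraries came from separate dogs, so p-values measure spread between libraries. No 2 of the 10 were alike within plain counting noise, with a chi-square per degree of freedom of at least 10.8. This check looks for a library entered more than once. It leaves out noise added by the collision correction and cannot show that the libraries came from separate dogs.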

Additional observations from a re-analysis of the deposited data

Results flagged for a closer look

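In 19 sets of 10 libraries, 3 held a library far from the rest by Dixon's criterion; chance alone flags about 1 set in 20; 12 of the sets are levels of genes named for their fold changes, for which that rate does not hold. Tumour 36 had a log2(CPM + 1) of 9.27 for ENSCAFG00000010840, far above the other 9 tumours of the run. Tumour 35 had a log2(CPM + 1) of 12.8 for ENSCAFG00000030286, above the rest of the run. Among the normal cortices, normal 3 had a log2(CPM + 1) of 13.5 for the same gene.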

How the results depend on the processing

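Against 78 higher and 63 lower genes with the design as planned, counts changed by over 1.5 times with DESeq2 (131 and 199), limma-voom (287 and 246), library totals alone (171 and 32), thinned libraries (44 and 28), tumours 1 to 26 as comparators (3 and 0) and against a fold of 1.5 (0 and 0, with 276 genes at an unadjusted p under 0.05 in edgeR), and the lower count with no filter (34). Leaving out 1 library at a time gave 8 to 153 higher and 1 to 128 lower genes. Their cause was not tested, except that thinning removes molecules and left 9490 genes to test. Median-ratio scaling, the stricter filter, distinct tags, the depth covariate and leaving out genes at the ceiling kept both counts within 1.5 times. Of the 141 genes, 140 kept their direction with DESeq2 and 141 with limma-voom. The directions of the 4 named genes held in all 51 alternatives run for each, and calls were lost in 6, 30, 12 and 9 of them, in the order given in the report. The mean r among the 10 tumours was 0.693 over the 2000 most variable genes, where it was 0.723 among comparators and 0.690 between groups; without each tumour in turn it was 0.874 to 0.886. The difference in log2 total was -0.077 over the genes tested (permutation p = 0.72), and the shares of genes on the called side kept their values within the spread of the 10 tumours when read against the comparators' mean. No paired analysis was possible because the labels give no animal.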
